A study of Mus musculus with 8 samples.

Results

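The genes described here are Apoe, the genes of the apolipoprotein C cluster beside it (Apoc1, Apoc2 and Apoc4) and 5 genes that flank this cluster on mouse chromosome 7 (Bcam, Nectin2, Tomm40, Clptm1 and Relb). They were chosen by symbol, for their position, and all 9 were found among the 21859 genes of the count files. The samples were whole aortas, of 4 ApoE-/- mice (genotype label ApoE knockout) and 4 WT mice, from which total RNA gave 1 library per mouse. All 8 mice were 40 weeks old and on a normal diet, and the methods of the study describe them as males fed chow and name a C57BL/6 background. The ApoE-/- mouse lacks functional apolipoprotein E in every cell and has high plasma cholesterol, so effects of the missing protein in the artery wall and of the blood lipids cannot be told apart. The part of the gene that the allele removes was not given in the sources used here.

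Apolipoprotein E is a secreted protein of lipoproteins that binds receptors on the cell surface and so brings remnant particles into the liver. It is made mainly by hepatocytes, and also by macrophages, adipocytes and smooth muscle cells of the artery wall. The small C apolipoproteins ride on the same particles: Apoc1 inhibits lipid exchange and receptor uptake, and Apoc2 activates lipoprotein lipase. The genes lie next to each other in mammals, and in liver and macrophages some of them are controlled by shared distal enhancers.

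All 9 genes lie on the minus strand of chromosome 7 (GRCm38, GENCODE M21), between positions 19606217 and 19771016, a span of 164.8 kb. In the direction of transcription the order is Bcam (19756131 to 19771016), Nectin2 (19716644 to 19750483), Tomm40 (19701313 to 19715438), Apoe (19696109 to 19699188), Apoc1 (19689481 to 19692660), Apoc4 (19678083 to 19681479), Apoc2 (19671579 to 19677941), Clptm1 (19631571 to 19665033) and Relb (19606217 to 19629438). Tomm40 ends 2124 bases before Apoe starts, and Apoe ends 3448 bases before Apoc1 starts. Apoc2 and Apoc4 are also joined by an annotated readthrough gene on the same strand, Gm44805, whose exons cover 646 of the 813 exon bases of Apoc2 (79.5%) and 119 of the 2537 of Apoc4 (4.69%). Tomm40, Nectin2 and Bcam share 258, 135 and 52 exon bases with genes on the opposite strand, and the libraries keep the strand of the RNA.

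Sequences at gene starts are shown for the gene that was disrupted and for Tomm40 and Bcam, 2 genes upstream of it, which start 16.2 kb and 71.8 kb away and were picked after their values were seen. Each window is taken from RefSeq (GRCm38.p6), holds 250 bases before and 50 bases after an annotated start, and is written 5′ to 3′ on the strand of the gene. For Apoe, the most upstream of its listed starts is used (position 19699188, which is also the start of the gene in GENCODE). Capitals mark GGGCGG, the GC box.
Apoe start (chr7:19699139-19699438, minus strand): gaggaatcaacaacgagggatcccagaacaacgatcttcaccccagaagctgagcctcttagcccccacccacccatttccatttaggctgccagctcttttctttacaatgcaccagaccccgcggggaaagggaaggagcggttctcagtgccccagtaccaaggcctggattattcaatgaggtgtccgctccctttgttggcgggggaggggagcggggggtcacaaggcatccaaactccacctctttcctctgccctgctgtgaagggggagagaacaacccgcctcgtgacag
Tomm40 start (chr7:19715380-19715679, minus strand): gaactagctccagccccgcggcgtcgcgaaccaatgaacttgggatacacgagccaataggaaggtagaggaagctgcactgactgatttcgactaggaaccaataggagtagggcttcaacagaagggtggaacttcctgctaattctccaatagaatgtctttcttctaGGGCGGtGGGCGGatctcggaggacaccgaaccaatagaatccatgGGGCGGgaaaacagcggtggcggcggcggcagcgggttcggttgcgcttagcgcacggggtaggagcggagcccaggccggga
Bcam start (chr7:19770483-19770782, minus strand): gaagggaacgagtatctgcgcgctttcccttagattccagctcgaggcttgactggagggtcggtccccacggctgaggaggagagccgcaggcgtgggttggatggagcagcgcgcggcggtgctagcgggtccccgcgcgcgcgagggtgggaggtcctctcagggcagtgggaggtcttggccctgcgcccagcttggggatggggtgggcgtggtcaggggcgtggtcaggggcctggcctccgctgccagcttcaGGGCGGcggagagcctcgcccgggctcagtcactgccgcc
The Tomm40 window held 3 copies of GGGCGG and 5 of CCAAT on either strand, the Bcam window held 1 of GGGCGG and 0 of CCAAT, and the Apoe window held 0 of each. Among the windows not printed, those of Nectin2 and Clptm1 held 3 of GGGCGG and 0 of CCAAT each, that of Apoc4 held 1 of each, and that of Apoc2 held 0 of each. GGGCGG occurred in 35.7% and CCAAT in 37.4% of the 32851 windows of this kind in the mouse genome, both strands counted. The table had windows for 7 of the 9 genes and none for Apoc1 and Relb.

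The counting file gave 23240995 to 23940156 read pairs on genes in ApoE-/- mice and 18375898 to 21664598 in WT mice, which made up 32.3% to 35.6% and 27.9% to 30.2% of all pairs in the files. Pairs on no gene were 50.1% to 54.7% in ApoE-/- and 56.4% to 58.0% in WT mice, without overlap, and their part in the results was not tested. Levels are given as CPM, the read pairs of a gene scaled to a common library size with TMM factors, and genotypes were compared with edgeR's quasi-likelihood test over 15077 genes. Called genes are those with an adjusted p under 0.05, and log2 fold changes are ApoE-/- against WT. One library stood apart from the rest: without ApoE-/- replicate 1, edgeR called 593 genes (3.91%) in place of 70 (0.464%), so values without it are given wherever they change a call. Nothing in the labels names separate litters or batches, and p-values weigh the genotype difference against the spread between these mice.

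Apoe (ENSMUSG00000002985.16) was the only one of the 7 tested genes that edgeR called. Its level was 32.3, 14.7, 17.6 and 36.3 CPM in ApoE-/- replicates 1 to 4 and 809, 667, 536 and 857 CPM in WT replicates 1 to 4. Every ApoE-/- aorta lay far below every WT aorta, and none went against its genotype label. The mean fell from 717 ± 145 to 25.2 ± 10.7 CPM (SD, n = 4 each), which is a log2 fold change of -4.83 with an SE of 0.37 (edgeR adjusted p = 0.0141). By size and by p this was the first of all tested genes among those lower in ApoE-/- mice. Called genes lower in ApoE-/- mice made up 0.0929% of all genes tested. The edgeR call was lost without ApoE-/- replicate 3 (-4.69, adjusted p = 0.0587), WT replicate 2 (-4.86, adjusted p = 0.0838) or WT replicate 4 (-4.73, adjusted p = 0.0755), fits in which edgeR called 0 genes of all those tested and found an unadjusted p under 0.05 for 1556, 1393 and 1269 genes. DESeq2 called Apoe in all 8 fits that left out 1 mouse, with an adjusted p of at most 7.36e-34.

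Transcripts of the disrupted gene were not absent. The ApoE-/- libraries held 795, 335, 403 and 837 Apoe read pairs in replicates 1 to 4, which put Apoe at 4.50%, 2.04%, 2.45% and 5.06% of the WT mean. Replicates 1 and 4 held about the same level, well above that of replicates 2 and 3. The files count pairs over the whole gene, so the exons that these pairs came from were not analysed here. In tissue made of several cell types, fewer cells that express a gene and less of its RNA in each cell cannot be told apart, and this holds for every gene below.

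Apoc1 (ENSMUSG00000040564.14), the nearest gene downstream, was lower in each ApoE-/- aorta than in each WT aorta. Its level was 9.74, 7.65, 4.70 and 17.0 CPM in ApoE-/- replicates 1 to 4 and 46.6, 21.2, 24.5 and 81.5 CPM in WT replicates 1 to 4. The highest ApoE-/- mouse, replicate 4, stayed below the lowest WT mouse, replicate 2, and both groups were wide, the highest mouse having 3.62 times the level of the lowest in ApoE-/- mice and 3.85 times in WT mice. Means were 9.78 ± 5.25 and 43.5 ± 27.8 CPM (SD, n = 4 each), so ApoE-/- aortas held 22.5% of the WT level. The log2 fold change of -2.15 (SE 0.54) was not called by edgeR (unadjusted p = 0.00384, adjusted p = 0.127), whereas DESeq2 called it (-2.17, adjusted p = 0.00127). An exact permutation test (two-sided, 70 assignments of mice) gave p = 0.0286, the smallest p it allows. Without ApoE-/- replicate 1 the edgeR log2 fold change was -2.15 (SE 0.61, adjusted p = 0.102), and DESeq2 called Apoc1 in all 8 fits that left out 1 mouse.

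Set beside Apoe, Apoc1 was the larger share in the knockout, where the disrupted gene is the denominator of the ratio. For every 100 Apoe pairs there were 26.8 to 52.2 Apoc1 pairs in ApoE-/- aortas (39.0 ± 12.4, SD, n = 4) and 3.17 to 9.51 in WT aortas (5.75 ± 2.72, SD, n = 4). These values are a description, since a low Apoe level raises the ratio for any gene. In both genotypes replicate 4 was the highest mouse for both genes and replicate 1 the next, and replicates 2 and 3 changed places between the genes.

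**Figure D1:**
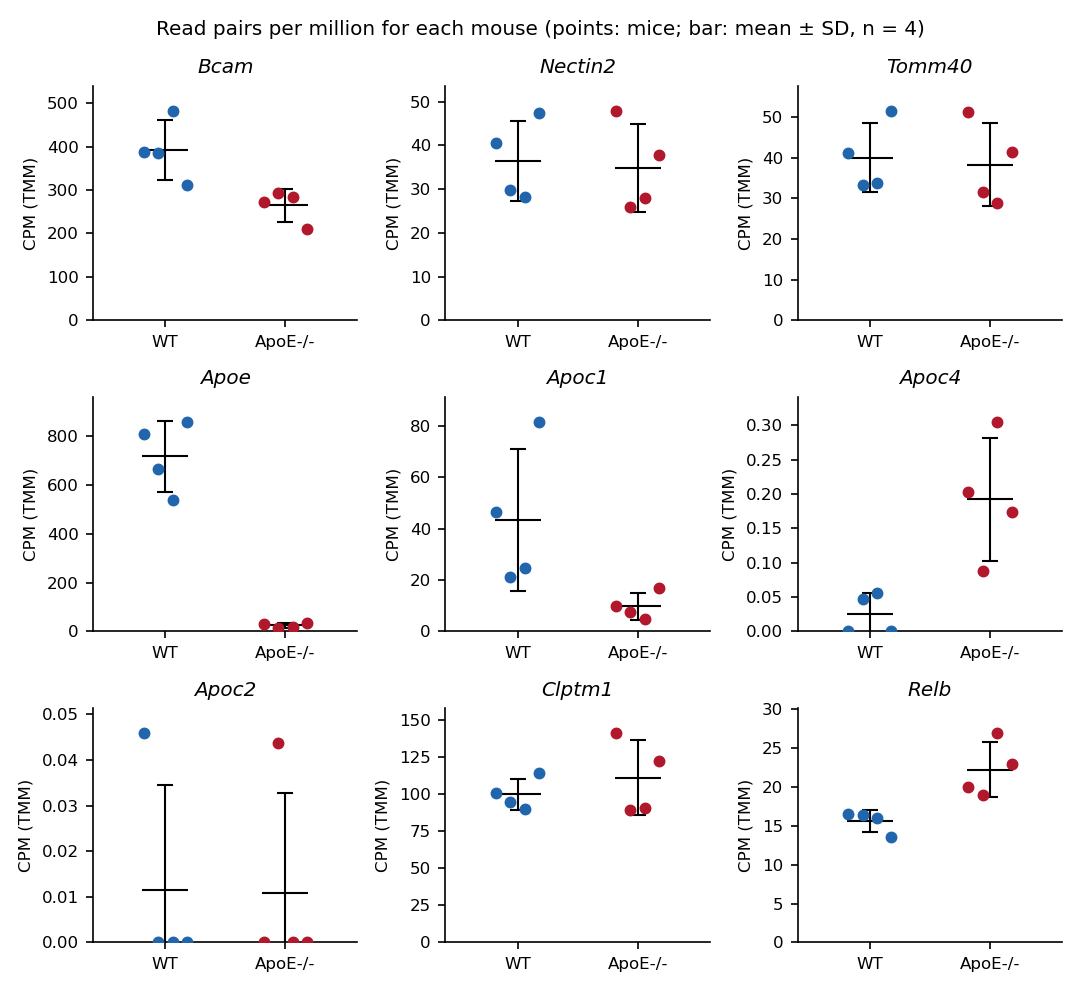
Level of each of the 9 genes (CPM, TMM-scaled, vertical axes from 0 and different for each panel) in 4 WT (blue) and 4 ApoE-/- (red) aortas, panels in the direction of transcription; points are mice, in the order of replicates 1 to 4, and bars the mean ± SD. The genotypes are apart for Bcam, Apoe, Apoc1 and Apoc4 and for Relb, and overlap for Nectin2, Tomm40, Apoc2 and Clptm1.

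Apoc4 (ENSMUSG00000074336.5) and Apoc2 (ENSMUSG00000002992.17), the next genes of the cluster, were barely detected in the aorta and did not pass edgeR's filter on low counts. Apoc2 had 1 read pair in ApoE-/- replicate 2, 1 in WT replicate 1 and 0 in the other 6 libraries. A count of 0 allows up to 3 pairs, or 0.122 to 0.166 CPM in these libraries, by counting error only. At this depth no difference in Apoc2 could be detected.

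Reads from most of Apoc2 also match the readthrough gene, and only 167 of its exon bases are its own. Gm44805 was listed with 0 pairs in all 8 libraries. Pairs that overlapped several genes were put in a total of their own, which held 0.919% to 1.32% of all pairs in ApoE-/- mice and 0.850% to 0.993% in WT mice. The counting mode was not given in the sources used here, and how many ambiguous pairs came from Apoc2 was not tested. The third exon of Apoc2-201, which is the fourth of Gm44805-201, shows what cannot be told apart, since all of its 151 coding bases belong to both.
Apoc2 exon 3 (chr7:19673229-19673379, minus strand): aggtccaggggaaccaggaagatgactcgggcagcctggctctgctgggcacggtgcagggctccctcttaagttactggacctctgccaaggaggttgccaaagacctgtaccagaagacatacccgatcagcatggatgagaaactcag

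Apoc4, whose product is a minor apolipoprotein of VLDL, had 5, 2, 7 and 4 pairs in ApoE-/- replicates 1 to 4 and 0, 1, 1 and 0 pairs in WT replicates 1 to 4. The counts were small throughout, and the genotypes did not overlap. The 18 pairs in ApoE-/- and 2 pairs in WT mice gave a ratio of 7.90 after allowing for depth, with a 95% exact interval of 1.89 to 70.2 that covers counting error only. The CPM gave an exact two-sided permutation p of 0.0286, and DESeq2 gave an adjusted p of 0.276. Among the tested genes, 8.71% had genotypes that did not overlap, 3.3% lower and 5.41% higher in ApoE-/- mice.

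Upstream of Apoe, the 2 nearest genes had overlapping levels. Tomm40 (ENSMUSG00000002984.17) encodes the channel of the translocase in the outer mitochondrial membrane. Its level was 51.1, 31.5, 28.8 and 41.5 CPM in ApoE-/- replicates 1 to 4 and 41.2, 33.3, 33.9 and 51.5 CPM in WT replicates 1 to 4. The genotypes covered nearly the same range, and the log2 fold change was -0.06 (SE 0.22, 95% interval from the moderated t distribution -0.57 to 0.44, edgeR adjusted p = 0.955).

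Nectin2 (ENSMUSG00000062300.14) encodes an adhesion molecule of cell junctions that also serves as a ligand of lymphocyte receptors. Its level was 47.8, 25.8, 27.9 and 37.8 CPM in ApoE-/- replicates 1 to 4 and 40.6, 29.8, 28.2 and 47.3 CPM in WT replicates 1 to 4. The order of the mice was close to that of Tomm40, with replicates 1 and 4 the highest in both genotypes. The log2 fold change was -0.07 (SE 0.25, 95% interval -0.63 to 0.50, edgeR adjusted p = 0.957). Its sign and that of Tomm40 depended on single mice.

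Bcam (ENSMUSG00000002980.14), farther upstream, encodes the Lutheran glycoprotein, a receptor for laminin alpha 5 on endothelium, muscle and epithelium. Its level was 272, 294, 284 and 210 CPM in ApoE-/- replicates 1 to 4 and 389, 386, 481 and 313 CPM in WT replicates 1 to 4. All 4 ApoE-/- aortas lay below all 4 WT aortas, with the highest ApoE-/- value just under the lowest WT value, that of replicate 4. Means were 265 ± 37.5 and 392 ± 69.2 CPM (SD, n = 4 each). The log2 fold change of -0.57 (SE 0.17) was not called by edgeR (adjusted p = 0.215) and was called by DESeq2 (-0.58, adjusted p = 0.0416). Among the fits that left out a single mouse, DESeq2 kept this call only without ApoE-/- replicate 1 (adjusted p = 0.0393) or WT replicate 4 (0.0156), and its adjusted p otherwise reached up to 0.222.

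Clptm1 and Relb lie beyond the C cluster. Clptm1 (ENSMUSG00000002981.10) encodes a membrane protein of the endoplasmic reticulum that limits the export of GABA type A receptors, and it was measured at 141, 89.5, 90.7 and 122 CPM in ApoE-/- replicates 1 to 4 and 101, 94.4, 90.1 and 114 CPM in WT replicates 1 to 4. The WT values sat inside the span of the ApoE-/- values. The log2 fold change was 0.15 (SE 0.17, 95% interval -0.24 to 0.54, edgeR adjusted p = 0.823).

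Relb (ENSMUSG00000002983.17) encodes the NF-kB subunit that acts with p52 in the non-canonical pathway. Its level was 20.01, 18.98, 26.92 and 22.92 CPM in ApoE-/- replicates 1 to 4 and 16.57, 16.38, 16.01 and 13.60 CPM in WT replicates 1 to 4. Each ApoE-/- aorta was above each WT aorta, and the WT values were close together. Means were 22.2 ± 3.56 and 15.6 ± 1.38 CPM (SD, n = 4 each). The log2 fold change of 0.51 (SE 0.14, unadjusted p = 0.00616) was not called by edgeR (adjusted p = 0.163) or by DESeq2 (0.50, adjusted p = 0.0595). Without ApoE-/- replicate 1, edgeR gave 0.55 (adjusted p = 0.0802), and DESeq2 called it (0.55, adjusted p = 0.0198), as it did without ApoE-/- replicate 2 (0.56, adjusted p = 0.0469).

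Of the 6 tested genes other than Apoe, 4 had a lower and 2 a higher fitted level in ApoE-/- mice, with a median log2 fold change of -0.06, where the median of all tested genes was 0.05. Among all 15077 tested genes, 8747 were fitted higher and 6330 lower, which is the background for every count of directions below. By edgeR 0 of the 6 were called, and 3 (Apoc1, Bcam and Relb) had an unadjusted p under 0.05, as did 11.4% of all tested genes (4.17% lower and 7.19% higher in ApoE-/- mice). DESeq2 called 2 of them, Apoc1 and Bcam, where it called 4.29% of the genes it adjusted (1.45% lower and 2.84% higher). Without ApoE-/- replicate 1 it called 3 of the 6 (Apoc1, Bcam and Relb) and 9.18% of all genes.

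The same region held 15 other genes of the files within 250 kb of Apoe, of which 9 were tested. Their median log2 fold change was 0.05, with 5 higher and 4 lower. By edgeR 0 were called and 1 had an unadjusted p under 0.05, and DESeq2 called 1. That gene was Bcl3, which encodes a nuclear partner of the NF-kB subunits p50 and p52 and starts 124 kb upstream of Apoe. Bcl3 was measured at 9.98, 9.31, 12.5 and 9.90 CPM in ApoE-/- replicates 1 to 4 and 4.73, 4.40, 2.44 and 4.74 CPM in WT replicates 1 to 4. All ApoE-/- values were above all WT values, and the log2 fold change was 1.35, with an SE of 0.23 (edgeR adjusted p = 0.0526, DESeq2 adjusted p = 9.65e-06). Next by p were Exoc3l2, which encodes a protein related to exocyst subunits (-0.73, SE 0.32, adjusted p = 0.441), and Bloc1s3, which encodes a subunit of a complex for lysosome-related organelles (0.37, SE 0.18, adjusted p = 0.525). Without ApoE-/- replicate 1, edgeR called Bcl3 (1.37, adjusted p = 0.0266) and Exoc3l2 (-1.09, adjusted p = 0.0465).

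**Figure D2:**
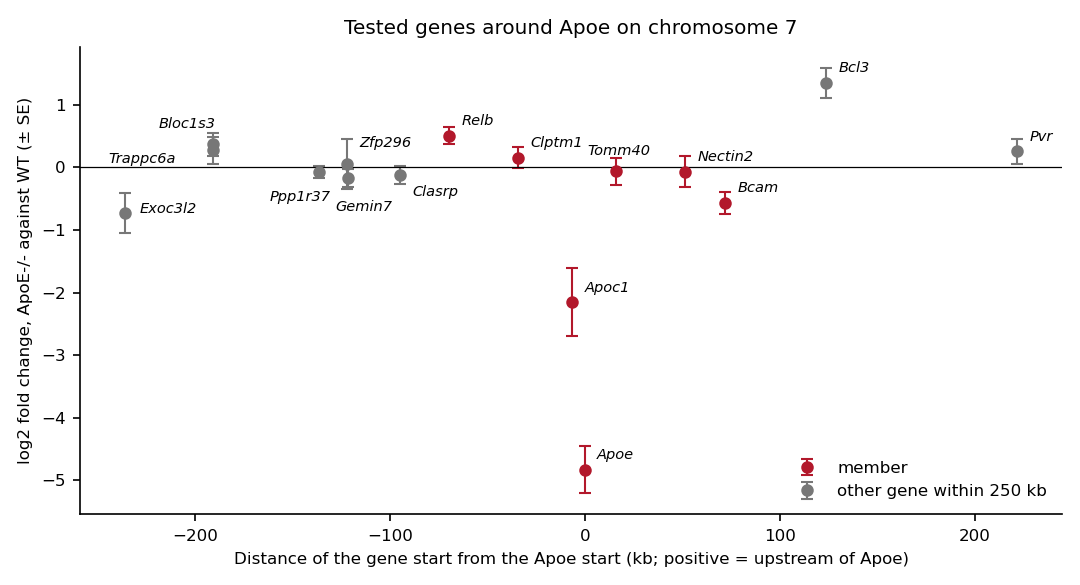
Log2 fold change (ApoE-/- against WT, edgeR, bars ± SE) of the 16 tested genes around Apoe on chromosome 7 against the distance of their starts from the Apoe start in kb, positive values lying upstream. Apoe (-4.83) and Apoc1 (-2.15) lie far below the other genes, which run from -0.73 (Exoc3l2) to 1.35 (Bcl3).

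Set per length of exon, the members ran over a wide range of levels. In WT aortas the order, in CPM per kb of exon, was Apoe (336 ± 67.8, SD, n = 4), Bcam (123 ± 21.6), Apoc1 (58.4 ± 37.3), Clptm1 (16.1 ± 1.67), Nectin2 (10.4 ± 2.60), Tomm40 (8.85 ± 1.88) and Relb (4.03 ± 0.356). Ranges of neighbours in this order overlapped for Bcam and Apoc1 and for Nectin2 and Tomm40, and the other neighbours were apart in all 4 mice. The last pair changed places when the longest transcript was taken as the length.

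In ApoE-/- aortas Bcam came first (82.8 ± 11.7 CPM per kb), then Clptm1 (17.9 ± 4.07), Apoc1 (13.1 ± 7.05), Apoe (11.8 ± 5.01), Nectin2 (9.97 ± 2.89), Tomm40 (8.47 ± 2.26) and Relb (5.72 ± 0.916). Only Bcam stood clear of the next gene, and all neighbours from Clptm1 to Relb overlapped in range. Apoe, the leading member in WT aortas, lay within the range of Apoc1 and near the levels of Nectin2 and Tomm40 there. Its full annotated exon length of 2138 bases was used in both genotypes. The part that the allele removes was not given, so the place of Apoe in this order is uncertain.

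**Figure D3:**
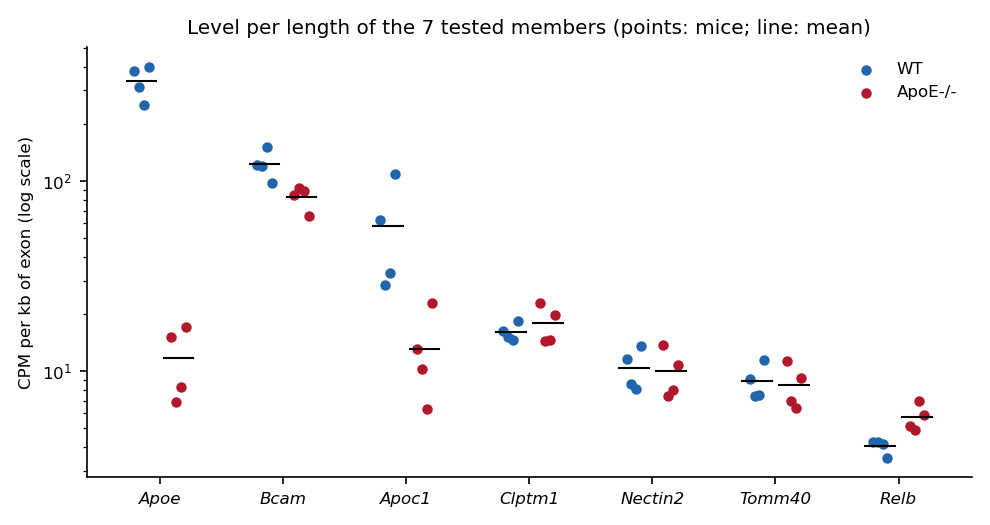
Level per length (CPM per kb of exon, log scale) of the 7 tested members in WT (blue) and ApoE-/- (red) aortas; points are mice and lines are means. Apoe leads in WT aortas (mean 336) and lies at 11.8 in ApoE-/- aortas, between Clptm1 and Nectin2 and close to Apoc1 (13.1). The full annotated exon length of Apoe was used in both genotypes.

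The genes most like Apoe and Apoc1 over the 8 mice, by the root mean square difference of centred log2 CPM, were listed as a description of the pattern. For Apoe they were Mb (1.04), Mybpc3 (1.05) and Myom2 (1.06), which encode myoglobin and sarcomere proteins of striated muscle. Even these nearest genes were distant from Apoe. Their log2 fold changes were -3.15, -2.91 and -3.05 against -4.83 for Apoe, and none was called by edgeR (adjusted p = 0.0631 to 0.172). Myoglobin RNA, for one, averaged 3.00 ± 4.07 CPM in ApoE-/- and 26.8 ± 13.9 CPM in WT aortas (SD, n = 4 each). For Apoc1 they were Fabp3 (0.52), a fatty acid carrier of heart muscle and brown fat, Lrrc2 (0.53) and Gmpr (0.58), which encodes GMP reductase.

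Markers of several cell types differed between the genotypes alongside these genes. The 9 listed markers of cardiac muscle summed to 160 to 342 CPM in ApoE-/- and 414 to 717 CPM in WT aortas, without overlap. All 8 of those tested were fitted lower in ApoE-/- mice (median log2 fold change -2.61), 0 called by edgeR (7 at an unadjusted p under 0.05) and 5 by DESeq2, with Myl4 (-2.46), Tnnt2 (-2.07) and Nppa (-3.49) first by p, and Nkx2-5 was at or under 3 pairs in every library. Leaving out ApoE-/- replicate 1 gave a median of -3.38, with 1 higher and 7 lower. Most of the ApoE-/- sum was Ryr2, a calcium channel of the sarcoplasmic reticulum, at 235 CPM on average against 238 CPM in WT aortas (log2 fold change -0.016). Of the 18 macrophage markers, all were fitted higher (median 2.06), and edgeR called Fcgr1 (2.32), Mpeg1 (3.02) and Trem2 (4.10) while DESeq2 called 15. Their sum was 751 to 3734 CPM in ApoE-/- and 381 to 546 CPM in WT aortas. Macrophages are known to make apolipoproteins E and C1, and these markers ran opposite to Apoe, the disrupted gene, and Apoc1 between the genotypes. Within ApoE-/- mice the macrophage sum was highest in replicate 4, as both genes were, and lowest in replicate 1, which came next for both genes. Within WT mice it was highest in replicate 1 and lowest in replicate 3. The part of these cell types in any result was not tested.

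The adipocyte markers, which stand for the fat around the vessel, overlapped between genotypes and followed Apoc1 within each. Their sum over 8 genes was 7447, 4139, 2813 and 11882 CPM in ApoE-/- replicates 1 to 4 and 9082, 5990, 6292 and 12091 CPM in WT replicates 1 to 4. In each genotype the mice had the same order for this sum as for Apoc1, with replicate 4 highest and replicate 1 next. This match was seen after the values were known. It was not particular to adipocyte markers, since the summed genes for lipases and lipoprotein remodelling, described below, had the same order in both genotypes. Per 1000 CPM of these markers there were 1.57 ± 0.242 CPM of Apoc1 in ApoE-/- mice (range 1.31 to 1.85) and 4.83 ± 1.45 in WT mice (range 3.53 to 6.74, SD, n = 4 each), a measure chosen after the values were seen. The part of fat in the Apoc1 levels was not tested. Of these 8 genes 7 were fitted lower (median -0.45), 0 called by edgeR (0 at an unadjusted p under 0.05) or DESeq2, with Lep (-1.38), Ucp1 (-1.11) and Plin1 (-0.56) first by p.

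**Figure D4:**
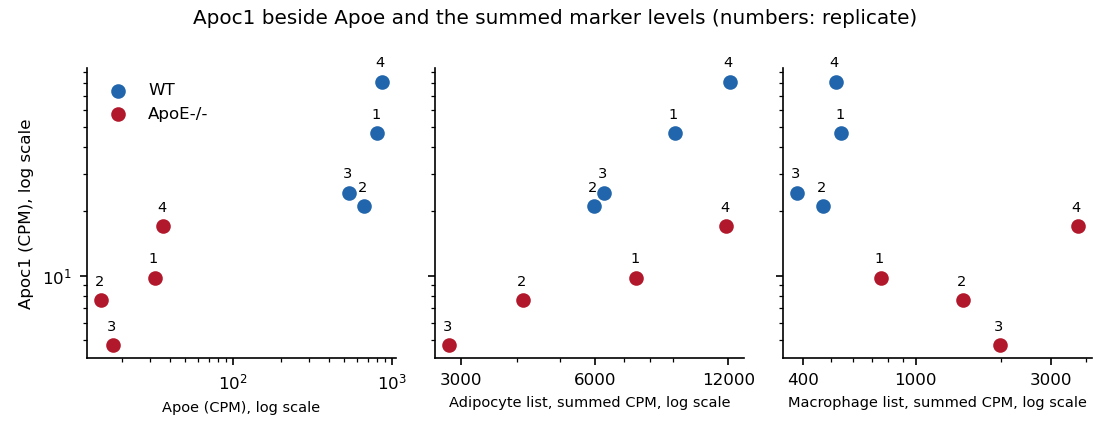
Apoc1 level (CPM, log scale) of each aorta against Apoe, the summed adipocyte markers and the summed macrophage markers (CPM, log scales); blue is WT, red is ApoE-/-, and the number is the replicate. The adipocyte sums overlap between genotypes (2813 to 11882 CPM in ApoE-/-, 5990 to 12091 CPM in WT aortas), and the macrophage sums do not (751 to 3734 and 381 to 546 CPM).

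Endothelial markers, which matter for Bcam, were fitted lower for 9 of 10 genes (median -0.36), with 0 called by edgeR (6 at an unadjusted p under 0.05) and 5 by DESeq2, and Egfl7 (-0.72), Emcn (-0.64) and Kdr (-0.79) came first by p. Their sum was 1862 to 2745 CPM in ApoE-/- and 2658 to 3169 CPM in WT aortas, with overlap. Smooth muscle markers, which are the bulk of the aortic wall and define the labelled tissue, were high in all libraries (5464 to 22635 and 12142 to 22742 CPM) and gave a median of -0.11, with 2 higher and 7 lower, 0 called by edgeR (0 at an unadjusted p under 0.05) or DESeq2 and Tagln (-0.26), Cnn1 (-0.17) and Acta2 (-0.17) first by p. Without ApoE-/- replicate 1 their median was 0.18, with 9 higher and 0 lower. Fibroblast markers were fitted higher for 8 of 8 genes (median 0.48), 0 called by edgeR (3 at an unadjusted p under 0.05) and 2 by DESeq2, with Lum (2.34), Col3a1 (1.36) and Col1a1 (1.23) first. The part of these cells in the levels of Bcam was not tested.

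Hepatocyte genes were low apart from Cyp2e1. Alb, the defining hepatocyte gene, averaged 0.170 CPM in ApoE-/- and 0.457 CPM in WT aortas, Ahsg 5.09 and 3.66 CPM, and Serpinc1 1.71 and 2.23 CPM. Of the 10 hepatocyte genes 5 were tested (3 higher, 2 lower, median 0.17, 0 called by edgeR or DESeq2, 0 at an unadjusted p under 0.05, Ahsg at 0.48, Serpinc1 at -0.39 and Fga at -1.41), and Cyp2e1, also a gene of fat, made up most of their sum. Nerve glia markers had overlapping sums and a median of -0.22, 2 higher and 6 lower, with 0 called by edgeR (0 at an unadjusted p under 0.05) or DESeq2 and Gfap (0.52) and Mbp (-0.48) first. The overlap rested on ApoE-/- replicate 1, whose sum was 1169 CPM against 242 to 352 CPM in the other ApoE-/- mice and 421 to 847 CPM in WT mice. Without it the median was -1.55, with 1 higher and 7 lower.

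Genes of the pathways in which the members act were looked at next, by group. Of 11 apolipoprotein genes outside the cluster only 5 were abundant enough to test, 4 higher and 1 lower (median 0.28). Without ApoE-/- replicate 1 this direction was not kept, with 2 higher, 3 lower and a median of -0.0083. Clu, the secreted chaperone clusterin, had 714 ± 313 CPM in ApoE-/- and 284 ± 40.3 CPM in WT aortas (SD, n = 4 each; log2 fold change 1.33, SE 0.33), without overlap, and was called by DESeq2 (adjusted p = 0.00388) but not by edgeR (adjusted p = 0.121). Apod (0.51) and Apob (-0.20) followed. By edgeR 0 of the 5 were called and 1, Clu, had an unadjusted p under 0.05.

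The 12 receptors of apolipoprotein E and their chaperones had a median of 0.05, 8 higher and 4 lower (-0.04, 5 higher and 7 lower without ApoE-/- replicate 1), and 0 were called by edgeR (0 at an unadjusted p under 0.05) or DESeq2 (2 at an unadjusted p under 0.05). The first by p were Lrp2 (-1.22), the scavenging receptor megalin, Lrp1 (0.51), a receptor for remnant particles, and their chaperone Lrpap1 (0.27). Of 9 tested genes for lipases and lipoprotein remodelling, 5 were lower and 4 higher (median -0.44). Gpihbp1, which holds lipoprotein lipase on capillary endothelium, had 60.0 ± 17.6 and 121 ± 19.4 CPM in ApoE-/- and WT aortas (SD, n = 4 each; log2 fold change -1.01, SE 0.22, edgeR adjusted p = 0.0944, DESeq2 adjusted p = 0.00127), followed by Pltp (0.59) and Lcat (-0.44). By edgeR 0 of the 9 were called, with 1 at an unadjusted p under 0.05, and DESeq2 called Gpihbp1 alone.

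The LXR receptors induce Apoe and the C genes in macrophages and fat, and 7 of their 9 listed genes and targets were fitted higher (median 0.17). Abcg1, a sterol exporter, had 91.0 ± 34.2 and 34.6 ± 10.05 CPM (SD, n = 4 each; log2 fold change 1.40, SE 0.30, edgeR adjusted p = 0.0853, DESeq2 adjusted p = 0.000796). Abca1 (0.49) and Srebf1 (0.38) were next, and edgeR called 0 of the 9 (2 at an unadjusted p under 0.05) and DESeq2 1. Among 15 NF-kB subunits and regulators, the pathway of Relb, 13 were fitted higher and 2 lower (median 0.25), where 8747 of all 15077 tested genes were higher. Bcl3 came first, as above, then Traf3 (0.60), which restrains the non-canonical pathway, and Nfkbie (0.69), an inhibitor of NF-kB dimers. Here edgeR called 0, with 3 at an unadjusted p under 0.05, and DESeq2 called Bcl3 alone.

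The 10 tested genes of the TOM complex and of mitochondrial import, the partners of Tomm40, had a median of -0.03, 4 higher and 6 lower. The median was -0.14, with 1 higher and 9 lower, without ApoE-/- replicate 1. Timm23, the channel of the inner membrane, came first (-0.42, SE 0.12, edgeR adjusted p = 0.172, DESeq2 adjusted p = 0.0276), then Timm44 (-0.20) and Tomm20 (0.18), with 0 called by edgeR (1 at an unadjusted p under 0.05) and 1 by DESeq2. Of 7 tested nectins and their partners, 6 were higher (median 0.34), led by Nectin4 (1.59), Nectin1 (0.61) and the lymphocyte receptor Tigit (1.21), with 0 called by edgeR (3 at an unadjusted p under 0.05) or DESeq2. The 11 laminin chains, which include the ligand of Bcam, had a median of 0.04 (0.16 without ApoE-/- replicate 1), 7 higher and 4 lower, with 0 called by edgeR (0 at an unadjusted p under 0.05) or DESeq2 and Lama4 (-0.35), Lama1 (-0.70) and Lamb3 (-0.49) first by p. Lama5, the chain that Bcam binds and which was picked for that role, had 471 ± 219 and 401 ± 71.0 CPM in ApoE-/- and WT aortas (SD, n = 4 each).

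Several of these lists had more calls without ApoE-/- replicate 1, the library that stood apart. In that fit, where edgeR called 3.91% of all genes in place of 0.464%, it called Clu (1.56), Gpihbp1 (-1.11), Abcg1 (1.52), Bcl3 (1.37) and Nectin1 (0.77) among the pathway genes, and 0 genes of the receptor, mitochondrial import and laminin lists. Of the cell markers it called 15 macrophage genes and 4 fibroblast genes higher, and 6 cardiac, 3 endothelial and 3 nerve glia genes lower. Of the 7 members tested in that fit it still called Apoe alone.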

How the data were processed

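Stranded, ribodepleted total RNA libraries of 8 mouse aortas were sequenced by the authors as paired ends, and they deposited 1 file per mouse with the raw counts, read pairs assigned to each gene, not normalized. TopHat2, HTSeq and the builds GRCm38 and mm10 are named in the submitters' processing notes, and versions, counting mode and annotation were not given in the sources used here. Of the 21859 gene identifiers, 21817 matched GENCODE M21 (GRCm38), which supplied coordinates. Totals for pairs on no gene (50.1% to 54.7% of pairs in ApoE-/- and 56.4% to 58.0% in WT mice), on several genes or at several places were left out of library sizes.

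In R 4.3.3, filterByExpr and TMM scaling of edgeR 4.0.16 were followed by glmQLFit (robust) and glmQLFTest, with genotype as the only factor, all tests two-sided and Benjamini-Hochberg adjustment over 15077 genes. The SE was the fold change divided by the square root of F. Alternatives were DESeq2 1.42.0, limma-voom (limma 3.58.1), DESeq2 or upper-quartile scaling in edgeR, no filter, at least 10 counts in every library, a fit that was not robust, a block for the replicate number, and leaving out each mouse. Single values were compared by exact permutation over 70 assignments (scipy 1.17.1, Python 3.11.15). The script was tested on simulated data.

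The 9 genes and the 16 gene lists (8 of pathways, 8 of cell markers) were chosen with earlier results of these data known. All members were named, and of the neighbours and of each list the called genes or the 3 with the smallest p, except for a gene that is not reported here. DESeq2 left out 1 mouse at a time and Apoc1 per adipocyte marker were added after the data were seen.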

Additional observations from a re-analysis of the deposited data

How the results depend on the processing

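Apoe was lower in ApoE-/- mice in every fit tried. Its log2 fold change was -4.91 to -4.83 in the 8 alternatives that kept all mice, each with a call, and -5.06 to -4.64 when 1 mouse was left out, where edgeR called it in 5 of 8 fits. Of the 6 other tested members, edgeR called 0 under every edgeR and limma-voom setting, higher or lower. DESeq2 called 2 lower (Apoc1 and Bcam) and 0 higher, and leaving out 1 mouse it called 1 to 2 lower and 0 to 1 higher, where its share over all genes ran from 2.65% (without WT replicate 4) to 9.18% (without ApoE-/- replicate 1) against 4.29% with all mice. Of the neighbours, edgeR called 0 with all mice and 0 to 2 with 1 mouse left out (2 without ApoE-/- replicate 1), while DESeq2 called 1, and 1 to 2 with 1 mouse left out. The sign of Tomm40 (-0.24 to 0.082 with edgeR, 1 mouse left out) and of Nectin2 (-0.26 to 0.083) turned positive without ApoE-/- replicate 2, ApoE-/- replicate 3 or WT replicate 4. With DESeq2 the same 3 fits gave 0.0011, 0.038 and 0.067 for Tomm40 and 0.036, 0.012 and 0.068 for Nectin2. The cause was not tested.

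With the replicate number as a block, Apoe gave -4.91 (SE 0.23, edgeR adjusted p = 0.0294). Apoc1 gave -2.09 (SE 0.19, edgeR unadjusted p = 5.77e-05, adjusted p = 0.0977). Without the block these SEs were 0.37 and 0.54. Among the tested members only the SE of Relb went the other way, from 0.14 to 0.15. The block left 2 genes in place of 70 called. The labels link same-numbered mice by that number alone. Correlations of their deviations from the group means were 0.06, -0.45, 0.32 and 0.16 for numbers 1 to 4. Not every library correlated best with its own number. Such correlations over all tested genes cannot show whether the numbers stand for a pairing. Over all genes, edgeR called 0 to 17 genes when any mouse other than ApoE-/- replicate 1 was left out, 50 to 74 under the other edgeR settings without a block, limma-voom 29 and DESeq2 721. Apoc2 and Apoc4 had 2 and 20 pairs in all libraries together, too few for the filter, and how many of their pairs were left out as ambiguous was not tested.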
